A study of Mus musculus with 143 samples.

Results

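The genes described here are Ciita and genes of the MHC class II pathway: H2-Aa, H2-Ab1, H2-Eb1, Cd74, H2-DMa, H2-DMb1, H2-DMb2, H2-Oa and H2-Ob. They were found by symbol in the deposited expression table, which holds 54232 Ensembl gene identifiers, 54079 of them with a symbol, and all 10 were present. Total RNA, depleted of ribosomal RNA, was sequenced from mouse tumours of 11 syngeneic models, 33 at baseline, 55 isotype and 55 treated, grown from tumour lines injected under the skin of the right lower flank. Each model had 3 untreated baseline tumours, 5 tumours from mice given the isotype antibody muIgG1 and 5 from mice given muDX400, a mouse antibody against the checkpoint receptor PD-1. Both antibodies were injected on days 11 and 15 after implantation and the tumours were excised on day 19, 8 days after the first injection. The labels class CM3, MBT2 and MC38 as High responders to the PD-1 antibody, CT26, EMT6, MB49 and RENCA as Partial, and 4T1, B16F10, LL2 and TC1 as Resistant. They give neither the host strain and age nor the day on which baseline tumours were taken.

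MHC class II molecules are pairs of an alpha and a beta chain that display peptides from the endosomes of dendritic cells, macrophages and B cells to CD4 T cells. CIITA is a transactivator of class II genes. It binds no DNA itself but docks on factors (RFX, CREB and NF-Y) held at the X and Y boxes of the class II promoters, and interferon gamma induces it in many cell types. The invariant chain CD74 guides new class II molecules to the endosome, DM exchanges the remnant of that chain for peptide, and DO restrains DM, mainly in B cells.

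On GRCm38 Ciita lies on chromosome 16 (10480059 to 10528418, plus strand). The members other than Ciita and Cd74 lie on chromosome 17, from H2-Oa (34092340 to 34095234) to H2-Eb1 (34305867 to 34316674), and H2-Aa (34282744 to 34287823) is the one on the minus strand. RefSeq promoter windows (GRCm38.p6, 250 bases before to 50 after the start) were found for 7 members, in 8 windows. They were searched on both strands for the Y box letters TGATTGG and the X box core (AAC and ATGATG with 2 bases of any kind between them), letters that were chosen after the windows had been seen. The Y box was in 6 of the 8 windows against 7.82% of all 32851 windows, and the X box core in 4 of 8 against 0.137%. Both in order, at most 40 bases apart, stood in 4 windows of the whole set (0.0122%), and these belonged to H2-DMb1, H2-DMb2, H2-Ob and H2-Eb1, with 18, 18, 15 and 17 bases between the boxes. The H2-Aa window held the Y box letters and no exact match to the X box core, and looser X box letters were not searched for. The 4 stretches below show the shared arrangement in a DM gene, a DO gene and a classical beta chain gene, beside H2-Aa. Each is written 5′ to 3′ on the gene's strand, with the matched letters in capitals (chr17:34145107-34145178, plus; chr17:34238796-34238867, plus; chr17:34287852-34287923, minus; chr17:34305756-34305827, plus).
H2-DMb2: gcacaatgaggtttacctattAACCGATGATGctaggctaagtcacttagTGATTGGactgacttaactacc
H2-Ob: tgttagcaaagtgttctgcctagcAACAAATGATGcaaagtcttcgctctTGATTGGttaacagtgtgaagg
H2-Aa: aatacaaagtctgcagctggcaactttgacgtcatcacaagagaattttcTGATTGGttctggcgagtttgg
H2-Eb1: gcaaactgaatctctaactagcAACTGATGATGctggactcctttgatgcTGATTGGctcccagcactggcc

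Estimated depth was 11.4 to 49.8 M fragments per library (median 20.8), and 10992 to 13328 genes reached 1 FPKM (fragments per kilobase of transcript and per M fragments). 1 library stood apart for the members: RENCA isotype replicate 2, with a summed B cell marker level of 837.7 FPKM over 6 genes, against 2.39 to 4.89 in the other 4 tumours of its group. It had the highest Ciita, H2-DMb2, H2-Oa and H2-Ob of all libraries. CM3 isotype replicates 2 and 3 had the highest summed FPKM of all libraries, 784467 and 885333 against 507254 to 531146 in the other 8-day CM3 tumours. Results that rest on these libraries are given with and without them, alternatives added after the data had been seen. At the other end, B16F10 muDX400 replicate 2 had the lowest level of 8 of the 10 members. Nothing in the labels says how animals were assigned, and the p-values measure the spread between separately labelled tumours.

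Over all libraries the invariant chain gene was the most abundant member and the DO genes the least, on the FPKM scale, which is per length. Cd74 (chromosome 18, 60803848 to 60812652, plus strand, GRCm38) ran from 6.04 to 5450 FPKM (median 920). The chains of the classical molecules had medians of 289 (H2-Aa), 219 (H2-Ab1) and 265 FPKM (H2-Eb1). H2-DMa had a median of 44.6, H2-DMb1 of 29.6 and H2-DMb2 of 9.02 FPKM. Ciita, which encodes a regulator, had a median of 6.04 FPKM and spanned 0.041 to 53.4. H2-Oa and H2-Ob had medians of 0.996 and 0.508 FPKM and reached 1 FPKM in 71 and 35 of the libraries. In bulk tumour RNA, fewer cells of a type and less RNA per cell cannot be told apart.

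Ciita differed widely between models in the isotype arm. Its mean was highest in RENCA (19.0 ± 19.5 FPKM, SD, n = 5) and 4T1 (13.5 ± 1.91), then MB49 (11.6), CM3 (9.35), MBT2 (6.93), EMT6 (6.08), MC38 (5.24) and CT26 (2.74). B16F10 (1.15), TC1 (0.98) and LL2 (0.51 ± 0.33) were lowest. Single tumours set part of this order. Without RENCA isotype replicate 2 (53.4 FPKM) the RENCA mean was 10.4 ± 3.69 (n = 4), below those of 4T1 and MB49. Without CM3 isotype replicate 4 (28.5 FPKM) the CM3 mean was 4.57, below those of MBT2, EMT6 and MC38. Without replicate 2 the EMT6 mean was 3.58, and without replicate 3 the B16F10 mean was 0.60. H2-Ab1 was also highest in RENCA (591 ± 310) and lowest in LL2 (19.8 ± 7.45), with MC38 second (481 ± 164). No 2 neighbours in either order differed after adjustment over the 10 neighbouring pairs (exact permutation tests, 2-sided; lowest adjusted p 0.0794 for H2-Ab1 in TC1 against LL2, raw p 0.0079). 4T1, labelled Resistant, had the second highest mean of Ciita with all libraries and the highest without RENCA isotype replicate 2. CM3 isotype replicates 2 and 3 (2.48 and 1.70 FPKM) held the lowest CM3 values. Leaving both out, with 7.10, 28.5 and 7.004 FPKM kept, would put the CM3 mean above that of 4T1.

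**Figure D1:**
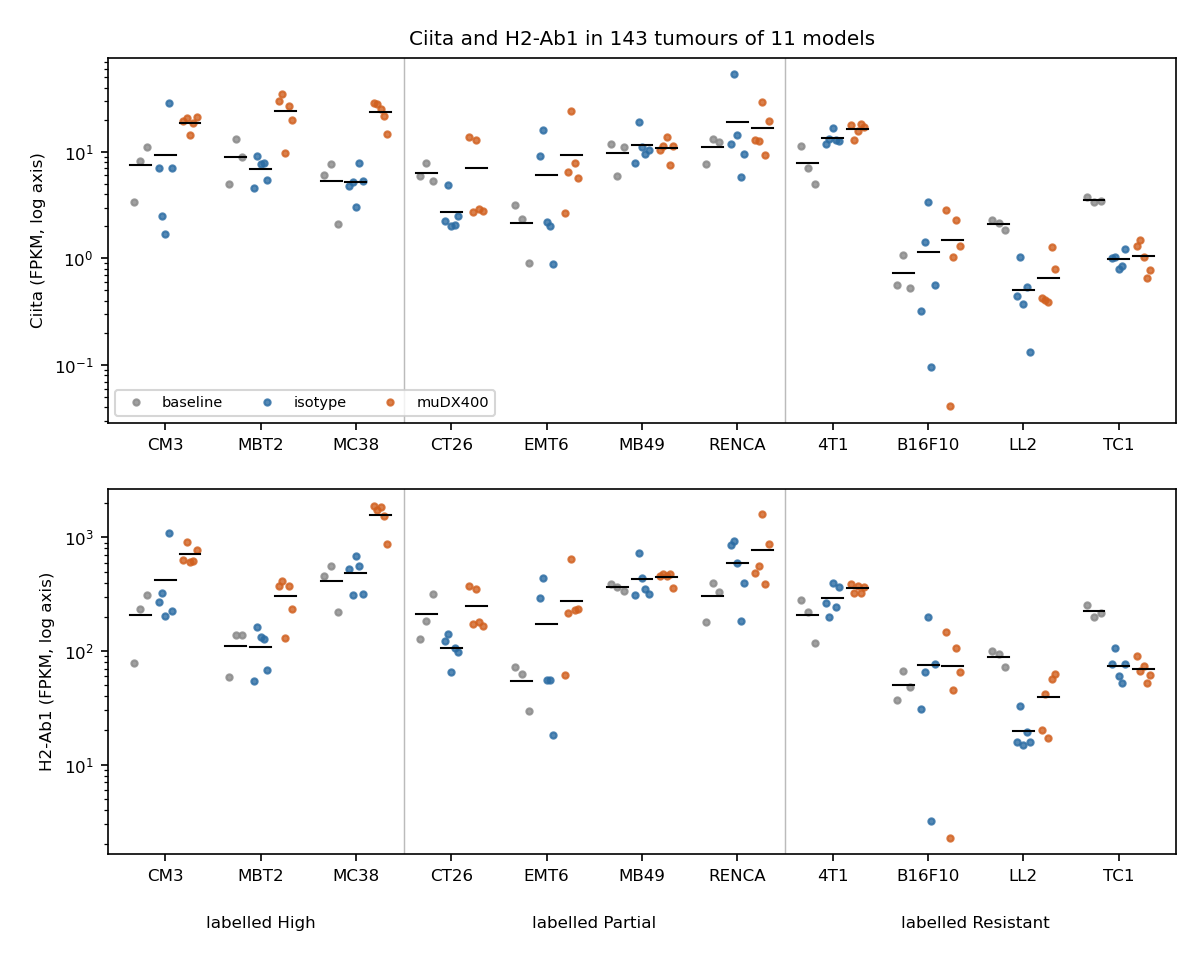
Levels of Ciita (top) and H2-Ab1 (bottom) in FPKM on log axes, by model, in baseline (3 points), isotype (5) and muDX400 (5) tumours; bars are group means. In MC38 all 5 muDX400 tumours (Ciita 14.6 to 28.8 FPKM) lie above all 5 isotype tumours (3.02 to 7.94), and in LL2 and TC1 the baseline tumours lie above the isotype tumours.

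The first comparison asked what PD-1 blockade did to the members within each model. In MC38 all 10 members rose, against 14.6% of all 12775 genes tested called higher (limma, Benjamini-Hochberg adjusted p under 0.05). The median difference of the members was 1.43 on the log2(FPKM + 1) scale, and that of all genes was -0.06. The isotype and muDX400 tumours did not overlap for 8 members (9.38% of all genes did not overlap and were higher). H2-DMb1 and H2-DMb2 overlapped.

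Ciita itself was 4.77, 5.18, 3.02, 7.94 and 5.29 FPKM in the MC38 isotype tumours. It was 28.8, 27.9, 25.2, 21.6 and 14.6 FPKM under muDX400. Every treated tumour lay above every control, and the difference was 1.99 ± 0.22 (SE; adjusted p 0.000852, limma). Among the classical chains, H2-Ab1, a beta chain gene, was 528, 308, 689, 559 and 320 FPKM under isotype and 1907, 1750, 1860, 1528 and 870 under muDX400. The groups did not overlap, although muDX400 replicate 5 lay well below the other 4. The difference was 1.73 ± 0.27 (adjusted p 0.00162, limma). The alpha chain gene H2-Aa rose by 1.83 ± 0.26 and the beta chain gene H2-Eb1 by 1.77 ± 0.26.

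Cd74 rose in MC38 by 1.67 ± 0.28, from 1324 ± 452 to 4132 ± 1078 FPKM (SD, n = 5 each). The peptide exchange chains rose less: H2-DMa by 1.20 ± 0.23, H2-DMb1 by 0.89 ± 0.19 and H2-DMb2 by 0.70 ± 0.17. The DO chains started near 1 FPKM and rose by 0.92 ± 0.18 (H2-Oa) and 0.84 ± 0.18 (H2-Ob). H2-Oa went from 1.31 ± 0.29 to 3.46 ± 1.23 FPKM and H2-Ob from 1.24 ± 0.33 to 3.07 ± 1.08. The added 1 understates the change of such low genes. With a spread shared over all libraries, H2-DMb1 (adjusted p 0.121) and H2-DMb2 (0.0885) lost their calls in MC38.

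Of 18 regulators of the pathway, 8 rose and 1 fell in MC38. The interferon gamma gene Ifng rose by 2.02 ± 0.23 (1.22 ± 0.52 to 8.15 ± 2.94 FPKM) and the myeloid factor Irf8 by 1.54 ± 0.17. The NF-Y subunit gene Nfyc fell by 0.27. The 3 RFX genes, whose products hold CIITA at the X box, were not called: Rfx5 differed by 0.29 ± 0.13 (adjusted p 0.113), Rfxap by -0.22 and Rfxank by 0.02. Of 9 genes of antigen processing and class II turnover, 7 rose, among them the invariant chain protease Ctss (1.67 ± 0.21), the class II ubiquitin ligase March1 (1.56 ± 0.22) and Ctsb (1.32 ± 0.20), a lysosomal protease. All 4 genes listed as partners on T cells rose: the class II receptor gene Lag3 (2.28 ± 0.28), Cd3e (2.20 ± 0.32), Cd4 and Il10ra (13.2 ± 1.52 to 40.4 ± 11.5 FPKM), a cytokine receptor that other leukocytes also express.

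Cell markers, among them those of cells that carry class II, moved with the members in MC38. The summed level of 9 macrophage markers ran from 819 to 1299 FPKM (median 1168) under isotype and from 1543 to 3157 (median 3104) under muDX400, and 8 of the 9 rose. The 8 dendritic cell markers summed to 35.3 to 49.5 (median 36.4) and 69.7 to 97.5 FPKM (median 89.0), and 5 of the 6 tested rose. The 5 T cell markers summed to 6.12 to 13.3 (median 10.9) and 25.9 to 109 FPKM (median 75.5), and all 5 rose. The summed B cell markers overlapped, at 1.95 to 5.75 and 1.19 to 20.4 FPKM. No marker of these lists was at 0 in all tumours of either arm. Of the plasmacytoid dendritic cell markers 0 of 2 tested were called. Markers of other cells moved too: the leukocyte gene Ptprc rose by 1.36, as did 3 of 3 endothelial markers (median 1.26), 2 of 4 fibroblast markers, 1 of 4 epithelial markers and the 1 NK cell marker tested, and of 2 neutrophil markers 1 rose and 1 fell. The part of these cells in the rise of the members was not tested.

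No member passed the threshold in the other 10 models. The share of all genes called higher was 0.0% in MBT2, CM3, EMT6, MB49, 4T1, B16F10 and LL2, 0.289% in CT26, 2.28% in RENCA and 0.0802% in TC1. MBT2, also labelled High, came nearest: its 10 members were all positive, with differences of 1.03 to 1.60 (median 1.22) and adjusted p of 0.0510 to 0.0597 (limma). All 10 were under 0.05 before adjustment, as were 28.7% of its genes, and none of its 12541 genes passed. Ciita was 4.56, 9.06, 7.68, 7.89 and 5.47 FPKM in MBT2 isotype tumours and 30.1, 35.1, 9.72, 27.2 and 19.8 under muDX400. These groups did not overlap, and muDX400 replicate 3 was the one close to the controls. The difference was 1.60 ± 0.30, and for H2-Ab1 it was 1.48 ± 0.37 (109 ± 46.2 to 305 ± 118 FPKM). Ciita, H2-Oa and H2-Ob were the 3 members without overlap (2.77% of all genes). Without muDX400 replicate 3 all 10 members passed in MBT2, and without replicate 5 there were 4. The share of all genes called in these refits is not given. With all libraries the lowest adjusted p over all MBT2 genes was also 0.0510 (limma), so these counts are not read as particular to the members.

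In CM3, the third model labelled High, the 10 members were positive (median 0.91) and 7 were under 0.05 before adjustment, beside 26.6% of all genes. Ciita was 7.10, 2.48, 1.70, 28.5 and 7.004 FPKM under isotype and 19.4, 20.7, 14.4, 18.5 and 21.1 under muDX400. 1 control, isotype replicate 4, lay above every treated tumour. The difference was 1.47 ± 0.53 (adjusted p 0.179, limma), and 9 members passed without that control. The share of all genes called in that refit is not given, so this count is not read as particular to the members. The same library carried the highest macrophage marker sum of its arm, 1766 FPKM against a median of 699. The lowest 2 controls were isotype replicates 2 and 3, the libraries with the highest summed FPKM. Their listed plasmacytoid dendritic cell markers (Siglech, Bst2 and Tcf4) summed to 666 and 660 FPKM. The sums were 265 to 347 in the other 3 controls and 208 to 271 under muDX400. They were not scaled for the higher summed FPKM of replicates 2 and 3, and which cells held these transcripts was not tested. Without isotype replicates 2 and 3, the Ciita difference in CM3 was 0.66 ± 0.40 (adjusted p 0.440, limma) and 0 members passed.

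In CT26, labelled Partial, 8 of the 10 members passed the filter on low values, all positive (median 0.99), 7 of them under 0.05 before adjustment (19.2% of all genes), with adjusted p of 0.079 to 0.293. For 6 the groups did not overlap (2.58% of all genes). H2-Ab1 was 121, 141, 65.1, 107 and 98.4 FPKM under isotype and 370, 172, 350, 178 and 164 under muDX400, without overlap, a difference of 1.15 ± 0.27 (adjusted p 0.0913, limma). Ciita was 13.6 and 12.9 FPKM in muDX400 replicates 1 and 3 and 2.73, 2.88 and 2.80 in the other 3, so that it overlapped the isotype tumours (2.02 to 4.93 FPKM; difference 0.84 ± 0.42). In this model the processing genes Ctss (0.60 ± 0.11), Ctsb (0.34 ± 0.06) and Ifi30 passed, as did 2 of 9 macrophage markers, while 0 of 18 regulators and 0 of 4 partners on T cells did.

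In EMT6 the 8 members tested were positive with a median of 1.06, but the spread was wide: Ciita was 9.21, 16.1, 2.22, 2.02 and 0.89 FPKM under isotype and 2.65, 6.47, 23.9, 7.91 and 5.72 under muDX400. None was under 0.05 even before adjustment (4.24% of all genes; lowest adjusted p 0.907, limma). LL2 had 6 members tested with a median of 0.86, 5 of them under 0.05 before adjustment (16.6% of all genes). The medians were 0.32 in 4T1 (9 tested, 3 under 0.05 before adjustment against 4.68% of all genes), 0.23 in B16F10 (7), 0.20 in RENCA (9) and -0.02 in TC1 (8), with none under 0.05 before adjustment in the last 3 (3.07%, 14.4% and 6.55% of all genes). In MB49 the 9 members tested had a median of 0.13 and a lowest adjusted p of 0.636 (limma). RENCA Ciita differed by 0.14 ± 0.48, and by 0.60 (adjusted p 0.425, limma) without isotype replicate 2. Ifng in RENCA was 2.53 ± 0.55 FPKM under isotype and 6.86 ± 3.67 under muDX400 (adjusted p 0.0619), and the lysosomal protease gene Ctsh passed there (0.92 ± 0.20). A p above the threshold does not show that the members stayed the same in these models.

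**Figure D2:**
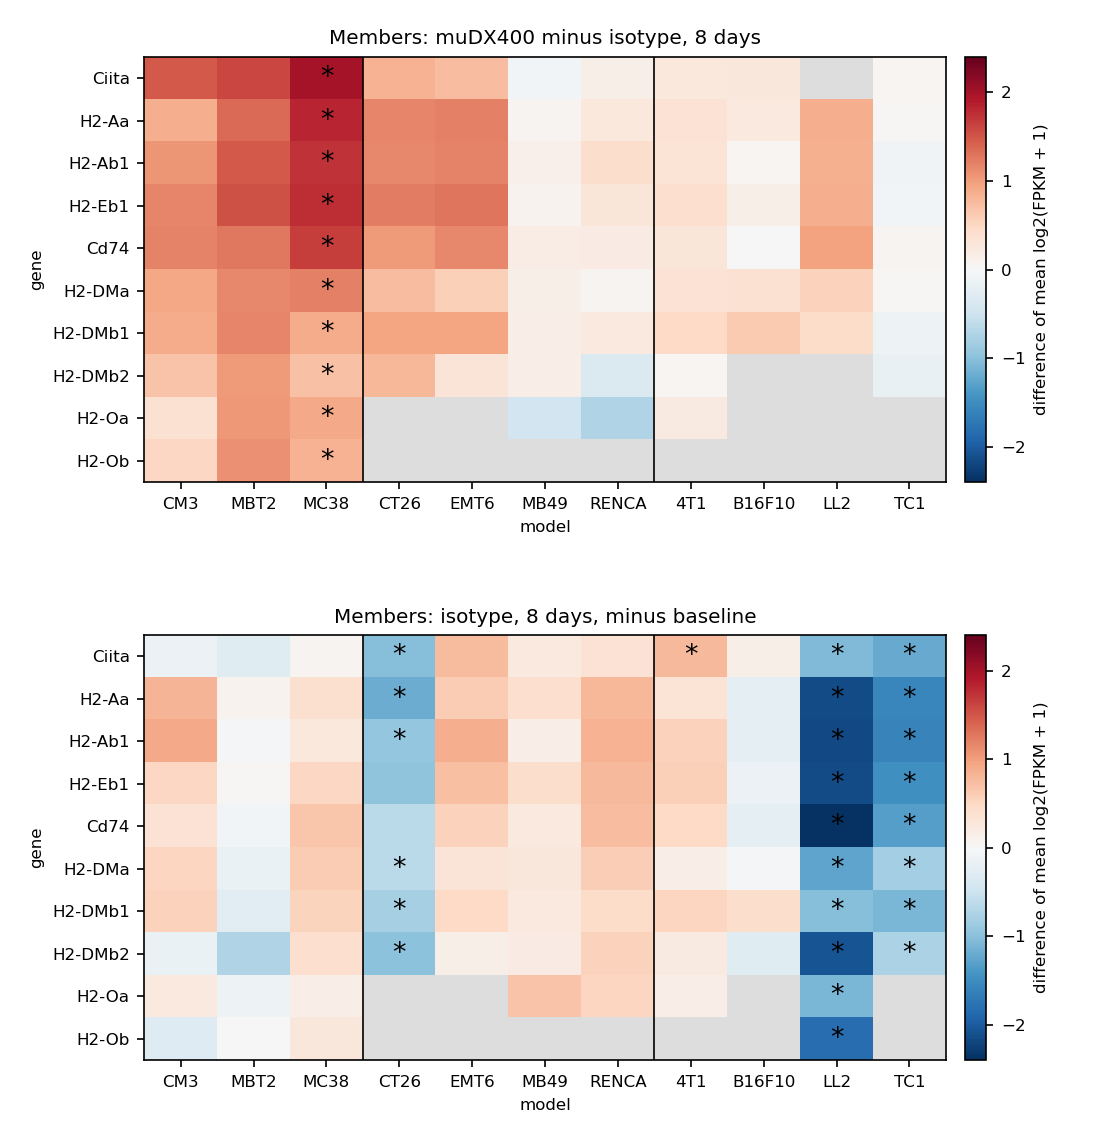
Difference of mean log2(FPKM + 1) for each member (rows) in each model (columns, ordered High, Partial, Resistant), for muDX400 against isotype (top) and isotype against baseline (bottom); stars mark adjusted p under 0.05 (limma), and grey cells did not pass the filter on low values. The upper panel has stars in MC38 only (10 members), and the lower panel in LL2 (10), TC1 (8), CT26 (6) and 4T1 (1).

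Averaged over the 11 models, 8 members rose under muDX400, against 14.5% of 16187 genes called higher. On the log2(FPKM + 1) scale the classical chains and Cd74 had the largest mean differences. These were 0.79 ± 0.18 for H2-Eb1, 0.75 ± 0.18 for H2-Ab1, 0.75 ± 0.18 for H2-Aa and 0.73 ± 0.17 for Cd74. Ciita rose by 0.67 ± 0.13 (adjusted p 3.5e-05, limma), H2-DMb1 by 0.61 ± 0.14, H2-DMa by 0.56 ± 0.13 and H2-DMb2 by 0.31 ± 0.10. The DO genes did not pass: H2-Oa differed by 0.14 ± 0.11 (adjusted p 0.395) and H2-Ob by 0.21 ± 0.11 (adjusted p 0.160). Without RENCA isotype replicate 2 both passed, H2-Oa at 0.22 ± 0.07 (adjusted p 0.0148, limma) and H2-Ob at 0.31 ± 0.05 (adjusted p 2.2e-06), which made 10 of 10. That 1 library therefore decided whether the DO genes were called. The share of all genes called without it is not given.

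The other genes of the pathway moved beside the members in this average. Of 18 regulators 8 rose (among them Ifng 0.74 ± 0.10 and Irf8 0.52 ± 0.11) and Nfyc fell by 0.09. Of 9 processing and turnover genes 7 rose (Ctss 0.61 ± 0.11, Ctsh 0.47 ± 0.09, March1 0.37 ± 0.08), and all 4 partners on T cells did (Cd3e 0.62 ± 0.10, Lag3 0.55 ± 0.09, Il10ra 0.48 ± 0.09). H2-Ea-ps, the E alpha chain gene, rose by 0.55 ± 0.13. That mean includes B16F10, LL2, MB49, MC38 and TC1, where H2-Ea-ps was at or near 0 FPKM. Within the other models its difference ran from 0.32 (RENCA) to 1.51 (CM3), with no call. Also higher in the average were 8 of 9 macrophage, 7 of 8 dendritic cell, 1 of 3 plasmacytoid dendritic cell and 5 of 5 T cell markers. The same held for 2 of 3 NK cell, 4 of 4 neutrophil, 3 of 3 endothelial and 3 of 4 fibroblast markers and Ptprc. Of the B cell (4 tested), epithelial (5) and melanocyte (5) markers 0 were called. The part of these cells in the members' rise was not tested.

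Whether the models differed in this effect was tested for each gene over the 11 models. Ciita was the 1 member called (F test in limma, adjusted p 0.0183), with 2.05 between its largest and smallest effect, while 32.4% of all genes were called. It lost the call without MC38 (adjusted p 0.174), with a pseudocount of 0.1 (0.151) and with the replicate number as a block (0.0562). Without RENCA isotype replicate 2, H2-Oa (adjusted p 0.00344) and H2-Ob (0.000236) were called as well, beside Ciita (0.0140). The share of all genes called under these alternatives is not given. For the classical chains and Cd74 the gaps were 1.66 to 1.84 between models and were not called.

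For the trend tests Resistant models took the value 0, Partial models 1 and High models 2, and each model counted as 1 value. No gene passed in any of the 3 trends (0.0% of 14009 at baseline, of 13589 in isotype tumours and of 13658 for the effect of muDX400), and so no member did. All 10 slopes were positive in each trend. At baseline they ran from 0.07 to 0.71 per class, with 0 members under 0.05 before adjustment (3.08% of all genes). In isotype tumours they ran from 0.33 to 1.33, with 5 members under 0.05 before adjustment (4.71% of all genes). For the effect of muDX400 they ran from 0.31 to 0.73, with 9 members under 0.05 before adjustment (25.9% of all genes) and Ciita the steepest (0.73 ± 0.17 per class, adjusted p 0.0888, limma). Without MBT2, 1 member passed in the last of these (the share of all genes is not given).

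The second comparison set isotype tumours, excised on day 19, against untreated baseline tumours of the same model. In LL2, a lung carcinoma model, all 10 members fell, against 15.8% of 12423 genes called lower. None of the 10 overlapped between the arms (20.7% of all genes did not overlap and were lower). On the log2(FPKM + 1) scale Cd74 fell most, by 2.36 ± 0.26. It went from 266, 256 and 198 FPKM at baseline to 39.6, 78.4, 41.9, 50.5 and 29.3. The added 1 understates the change of low genes. As ratios of means, H2-Ob (3.54 to 0.29 FPKM), H2-DMb2 (5.76 to 0.61) and H2-Oa (1.52 to 0.18) fell more than Cd74. The Cd74 mean went from 240 to 47.9 FPKM. The classical chains fell by 2.15 to 2.17, H2-DMb2 by 2.08 ± 0.12 and H2-Ob by 1.82 ± 0.09. Ciita fell by 1.07 ± 0.17 (adjusted p 0.00251, limma), from 2.29, 2.15 and 1.86 FPKM to 0.44, 1.04, 0.37, 0.54 and 0.13. H2-DMa fell by 1.26 ± 0.16, H2-Oa by 1.09 ± 0.10 and H2-DMb1 by 1.03 ± 0.16.

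The LL2 baseline tumours also held more lymphocyte transcripts than the isotype tumours. The 6 B cell markers summed to 25.6 to 34.1 FPKM (median 30.2) at baseline and to 0.87 to 1.08 (median 0.98) under isotype, and the 5 tested fell. The T cell markers summed to 9.69 to 13.4 and to 0.25 to 1.32 FPKM, and all 5 fell. Macrophage markers summed to 611 to 694 and to 336 to 586 FPKM, with 3 of 9 lower and 1 higher. Also lower were 2 of 4 fibroblast and 2 of 3 epithelial markers, and 1 of 4 dendritic cell markers. H2-Ob, a DO chain gene of B cells, was 3.43, 3.52 and 3.68 FPKM at baseline and 0.20 to 0.39 under isotype. The part of these cells in the fall of the members was not tested. Among regulators, Irf8 (-0.54) and Spi1 (-0.48), which encodes the myeloid and B cell factor PU.1, fell and the NF-Y subunit gene Nfyb (0.40) and the interferon receptor gene Ifngr1 (0.21) rose. The proteases Ctsh (-1.14) and Ctsb (-0.47) and the thiol reductase gene Ifi30 (-0.65) fell, as did Cd3e and Cd4 (both -1.54).

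In TC1, another lung model, 8 members were tested and all 8 fell, against 27.1% of 13068 genes, none with overlap (29.7%). H2-Ab1 was 254, 200 and 216 FPKM at baseline and 76.2, 106, 59.9, 52.0 and 77.4 under isotype, a difference of -1.61 ± 0.19. Ciita was 3.802, 3.397 and 3.452 FPKM and then 1.01, 1.04, 0.80, 0.85 and 1.22, a difference of -1.20 ± 0.10 (adjusted p 3.9e-05, limma). H2-Aa fell by 1.57, H2-Eb1 by 1.47, Cd74 by 1.32, H2-DMb1 by 1.10, H2-DMa by 0.82 and H2-DMb2 by 0.76. Here 10 of 17 regulators tested fell and 1 rose (among them Irf8 -1.15 and Spi1 -1.01), 6 of 9 processing genes fell (Ctsh -1.08, Ctss -1.06, March1 -0.91) and so did the 3 partners on T cells tested (Il10ra -1.31, Cd4 -0.91, Lag3 -0.58). Macrophage markers summed to 942 to 1086 FPKM at baseline and 395 to 710 under isotype, with 8 of 9 lower. Dendritic cell markers summed to 39.97 to 44.77 and 14.98 to 23.98 FPKM. Also lower in TC1 were 3 of 3 neutrophil markers (median -2.05), 3 of 3 endothelial markers (-1.22), 2 of 2 NK cell markers (-1.07), 2 of 4 fibroblast markers and Ptprc (-1.17). The part of these cells was not tested. With the spread shared over all libraries no member passed in TC1, and 6 did in LL2. The share of all genes called with the shared spread is not given.

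In CT26, a colon model, 6 of 8 members tested fell, against 19.0% of 12614 genes, 2 of them without overlap (22.6%): Ciita by 1.01 ± 0.23 and H2-DMb2 by 0.98 ± 0.21. H2-Aa fell by 1.19, H2-Ab1 by 0.92, H2-DMb1 by 0.79 and H2-DMa by 0.64. Ciita was 5.90, 7.91 and 5.30 FPKM at baseline and 2.22, 4.93, 2.02, 2.06 and 2.48 under isotype. Of the regulators 7 fell, among them Socs1 (-1.30), a feedback inhibitor of interferon signalling, and Ifng (-1.24). Ctss (-0.83) and Ctsh (-0.54) fell while Ctsl (0.39) rose, and of the partners on T cells Il10ra fell (-0.96). Cell markers moved as well in CT26: Ptprc fell (-1.18), as did 3 of 3 NK cell, 3 of 5 dendritic cell, 2 of 9 macrophage, 1 of 2 plasmacytoid dendritic cell and 1 of 5 T cell markers, while 3 of 3 endothelial markers (median 0.65) and 1 of 4 fibroblast markers rose. The macrophage markers summed to 1105 to 2009 FPKM at baseline and 969 to 1201 under isotype, and the dendritic cell markers to 11.1 to 19.8 and 7.65 to 9.53. Their part was not tested. The count of members was between 0 and 3 under 5 other settings and between 1 and 7 when 1 tumour was left out. It was 1 or 2 without baseline replicate 2 or 3 or isotype replicate 1, 3, 4 or 5. The share of all genes called in these CT26 refits is not given.

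4T1, a breast model, went the other way for 1 member. Ciita was 11.4, 7.03 and 4.96 FPKM at baseline and 11.9, 13.1, 16.8, 12.96 and 12.6 under isotype, without overlap (8.23% of all genes), a rise of 0.78 ± 0.21 (adjusted p 0.0326, limma; 4.61% of 13166 genes were called higher). The other 8 members tested were positive and not called. All 5 T cell markers (Cd3e 1.03), all 4 neutrophil markers, 2 of 5 dendritic cell markers and 1 of 4 fibroblast markers rose in 4T1 and all 5 epithelial markers fell. Their part was not tested. The Ciita call was lost without baseline replicate 2 and without isotype replicate 2, 3, 4 or 5.

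No member passed in the other 7 models (limma; shares of all genes called higher and lower: MBT2 10.7% and 11.8%, RENCA 1.76% and 8.25%, EMT6 2.92% and 7.69%, MC38 1.4% and 1.86%, MB49 0.22% and 1.67%, CM3 0.107% and 0.267%, B16F10 0.0084% and 0.924%). MBT2, MC38 and MB49 each had 1 member under 0.05 before adjustment (37.5%, 17.2% and 10.9% of all genes), and RENCA, EMT6, CM3 and B16F10 had 0 (24.8%, 28.5%, 11.5% and 6.11%). In EMT6, the model where same-numbered libraries deviated together, 5 members were called higher once the replicate number was a block. The share of all genes called with that block is not given. In 9 models, all but B16F10 and RENCA, the baseline and 8-day libraries carry sample numbers from different blocks, so that time and block cannot be told apart there. Estimated depth was 36.1 to 49.8 M fragments in B16F10 baseline tumours and 19.8 to 22.0 under isotype. For RENCA these were 39.1 to 43.9 and 16.5 to 19.2, and for TC1 36.9 to 39.1 and 17.9 to 20.5. Time and depth cannot be told apart in B16F10, RENCA and TC1.

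The composition of the class II set differed between models, as described by ratios of FPKM within each library (13 libraries per model). H2-Ea-ps (chromosome 17, 34341959 to 34344645, minus strand) is annotated as a polymorphic pseudogene. It encodes the E alpha chain in some strains, and mice of the H-2b haplotype, such as C57BL/6, lack its transcript because of a promoter deletion. It stood at 0.579 to 0.880 of H2-Eb1 (medians) in 4T1, CM3, CT26, EMT6, MBT2 and RENCA. In B16F10, LL2, MB49, MC38 and TC1 the median was 0 and no library exceeded 0.0345. The first 6 models thus held transcripts for both chains of the E molecule, and the other 5 held H2-Eb1 with almost no partner.

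The same division ran through the DM beta chain genes, closely related neighbours whose levels are uncertain where reads match both. H2-DMb1 exceeded H2-DMb2 by 58.3 (B16F10), 11.9 (MB49), 11.2 (MC38), 8.92 (TC1) and 8.09 times (LL2) as medians. In the 6 other models the medians were 1.55 to 2.27. LL2 changed between arms: its ratio was 1.51 to 2.13 in the 3 baseline tumours and 6.36 to 8.97 under isotype. Mean H2-DMb2 in LL2 was 5.76 FPKM at baseline and 0.61 under isotype, so that the isotype ratios rest on low values. In B16F10 the ratio was 9.01 to 19.5 (median 13.2) at baseline, 9.71 to 80.4 (69.4) under isotype and 55.4 to 111 (62.3) under muDX400. The mean level of H2-DMb2 in that model was 0.91 FPKM at baseline, 0.62 under isotype and 0.64 under muDX400, so that the ratios rest on low values.

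The A chains differed in 1 model. H2-Ab1 stood at 0.393 of H2-Aa in MBT2 (0.352 to 0.476) and at medians of 0.739 to 0.916 in the other 10. These chains are highly polymorphic between strains, and how well the reads of each haplotype matched the reference was not tested. Cd74 stood at medians of 1.66 (B16F10) to 4.28 times (CT26) the level of H2-Aa.

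**Figure D3:**
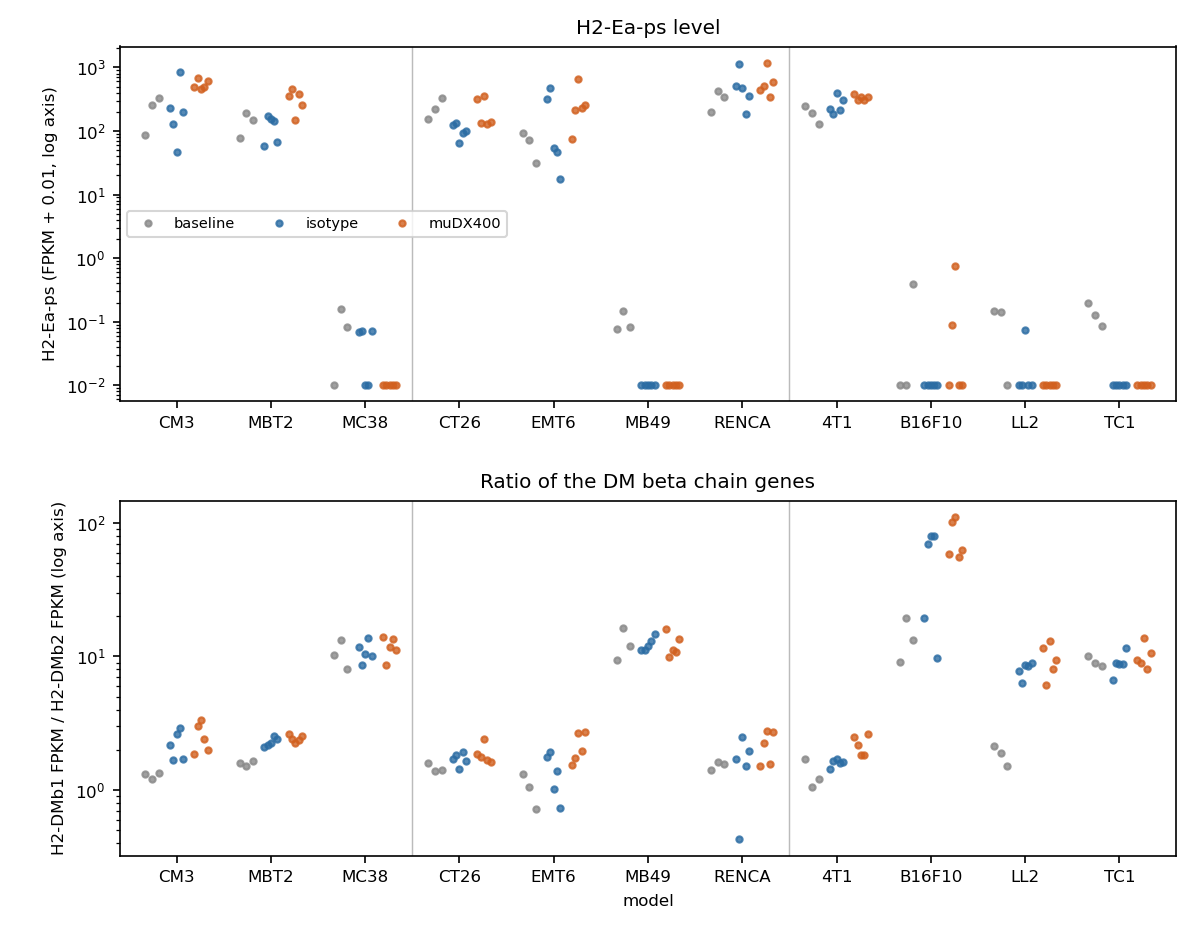
H2-Ea-ps in FPKM with 0.01 added (top) and the ratio of H2-DMb1 to H2-DMb2 (bottom), both on log axes, for each library by model and arm. H2-Ea-ps is at or near 0 in MC38, MB49, B16F10, LL2 and TC1, and the same 5 models hold the high DM beta ratios apart from the 3 LL2 baseline tumours (1.51 to 2.13).

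Within the 8-day arms the members varied together to different degrees. Pearson's r was taken over 110 libraries after each group's mean had been subtracted, on the log2(FPKM + 1) scale. These are descriptions, since libraries of a model share their processing. The mean of Cd74, H2-Aa, H2-Ab1 and H2-Eb1 had r of 0.96 with H2-DMa, 0.93 with H2-DMb1, 0.79 with Ciita and 0.75 with H2-DMb2. It had r of 0.48 with H2-Oa and 0.31 with H2-Ob, which became 0.62 and 0.47 without RENCA isotype replicate 2. H2-Oa and H2-Ob had r of 0.84 with each other, and 0.53 without that library.

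The 10 other genes most like Ciita among 12207 were Itgal (r 0.92), the integrin chain of leukocytes, then Themis2, Serpina3f, Samhd1, Il10ra, Tlr9, Icam1, Cd180, Ccdc88b and Nod1 (0.87). Those most like the mean of the 4 abundant members were Plbd1 (0.92), Fcgr4, a receptor for IgG on myeloid cells, H2-T23, Irf5, Slfn2, Serpina3g, Selplg, Irf8, Unc93b1 and Fcgr1 (0.89). The 2 lists share no gene, although r between Ciita and that mean was 0.79. Deviations were not scaled by group, so groups with a wider spread weigh more in r. Of the cell markers, Cd8a had r of 0.86 with Ciita, Cd3e 0.80, Ptprc 0.56 and the macrophage marker Csf1r 0.55. With the mean of the 4 abundant members these markers had r of 0.70, 0.67, 0.40 and 0.74.

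The DO genes had their highest levels in a single tumour, RENCA isotype replicate 2. H2-Oa was 3.34, 70.6, 1.85, 0.77 and 1.26 FPKM in the 5 RENCA isotype tumours, and H2-Ob was 0.65, 58.4, 0.45, 0.22 and 0.38. Of the classical chains, H2-Ab1 was 921 FPKM there and 182 to 856 in the others. H2-DMb2 was 175 FPKM there and 16.1 to 52.3 in the others, and Ciita was 53.4 and 5.80 to 14.5. The B cell markers of that tumour summed to 837.7 FPKM, and their part in these levels was not tested.

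**Figure D4:**
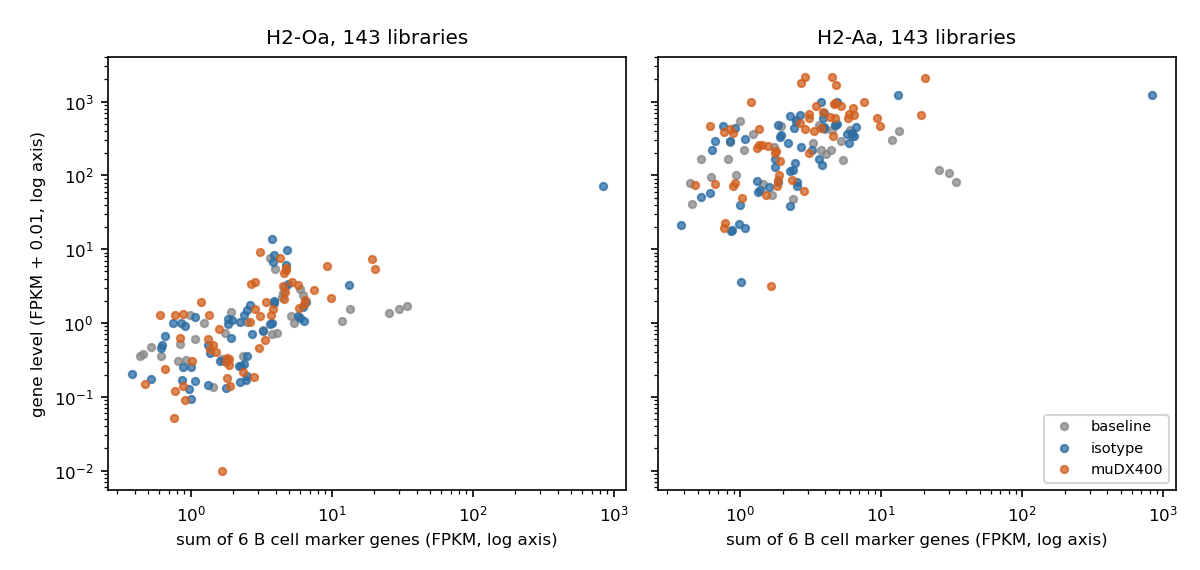
Level of H2-Oa (left) and of H2-Aa (right) in FPKM with 0.01 added against the summed level of 6 B cell markers in FPKM, both on log axes, one point per library, coloured by arm. The point at the far right is RENCA isotype replicate 2 (B cell sum 837.7 FPKM): its H2-Oa of 70.6 FPKM is the highest of all libraries, and its H2-Aa is not.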

How the data were processed

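The authors deposited 1 table of FPKM values for 54232 genes in all libraries, made from 50 base paired-end reads of stranded, ribosome-depleted total RNA per the labels' protocols. Which aligner, quantifier and genome build they used was not given in the sources used here. Depth was estimated from the smallest steps of the values. Libraries were grouped by the labels, and gene symbols and coordinates were read from GENCODE M21 (GRCm38). Tests were run on log2(FPKM + 1) with limma 3.58.1 (intensity trend) in R 4.3.3, 2-sided, with Benjamini-Hochberg adjustment over all genes tested and a threshold of 0.05. Genes needed 1 FPKM in 5 of 10 libraries (muDX400 against isotype) or 3 of 8 (isotype against baseline). The fits over all models used the 110 8-day libraries, and the class trends used model means, with 1 FPKM in 3 models. The code was tested on simulated data. Alternatives were another pseudocount, no filter, median-ratio scaling, quantile normalisation, a replicate block, a shared spread and leaving out each replicate. Same-numbered libraries correlated above 0.1 in every pair in 1 of 22 comparisons, EMT6 isotype against baseline (3 pairs, 0.164 to 0.311), with numbers from the titles. All 10 members were named in every comparison, with up to 3 passing genes per pathway list (1 regulator is not reported here), and the members and lists were chosen with earlier results of these data known.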

Additional observations from a re-analysis of the deposited data

Results flagged for a closer look

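Of 200 sets of 5 libraries (a member in an 8-day group), 17 (8.5%) held a value set apart by Dixon's criterion on a log scale. The criterion sets the gap to the nearest neighbour against the range of the group, and chance meets it in about 1 of 20. Values are printed in FPKM. Ciita of RENCA isotype replicate 2 (53.4 FPKM, others 5.80 to 14.5) lay far out on that scale and was not flagged. 2 values came from RENCA isotype replicate 2 (H2-Oa 70.65 FPKM against 0.769 to 3.34 in the others, H2-Ob 58.41 against 0.224 to 0.648), and 2 from CM3 isotype replicate 4 (H2-Ab1 1086 against 204 to 321, H2-Ob 1.885 against 0.385 to 0.582). In MC38, muDX400 replicate 5 was low for 4 members: Cd74 2302 FPKM (others 4034 to 4885), H2-Aa 980.6 (1803 to 2173), H2-Ab1 870.4 (1528 to 1907) and H2-Eb1 902.6 (1594 to 1943). In MB49, muDX400 replicate 5 was low for 3: Cd74 1085 FPKM (1340 to 1435), H2-Ab1 358.8 (460 to 479) and H2-DMb1 91.70 (106 to 110). In 4T1 the values were Ciita 16.80 FPKM in isotype replicate 3 (11.9 to 13.1), H2-DMb1 71.25 in muDX400 replicate 1 (53.3 to 57.9) and H2-Oa 0.6226 in muDX400 replicate 5 (1.26 to 1.30). The remaining ones were Ciita 4.927 FPKM in CT26 isotype replicate 2 (2.02 to 2.48), H2-Aa 39.05 in LL2 isotype replicate 2 (17.6 to 21.6) and H2-DMa 132.3 in MB49 isotype replicate 2 (64.4 to 79.1).

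The effect of muDX400 on Ciita differed between models in an F test over 11 models (limma, adjusted p 0.0183). This test called 32.4% of all genes. For Ciita the call was lost without MC38 (adjusted p 0.174 in the same test), with a pseudocount of 0.1 (0.151) and with the replicate block (0.0562).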

How the results depend on the processing

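Members called per comparison were recomputed under each alternative. The share of all genes called under each alternative is not given, so these counts describe the stability of the calls only. The 10 calls of MC38 under muDX400 became 8 with the shared spread and stayed 10 elsewhere. In the mean over models (8 members) it was 7 to 10 when 1 model was left out, 10 without RENCA isotype replicate 2 and 8 in each other setting, also without CM3 isotype replicates 2 and 3. Counts that moved by over 1.5 times were these. For the difference between models (1 member), 0 were called with a pseudocount of 0.1 and with the replicate block, 0 to 3 when 1 model was left out, and 3 without RENCA isotype replicate 2. For isotype against baseline, 4T1 (1 higher) gave 0 with no filter, the replicate block or the shared spread, 3 with quantile normalisation and 0 to 1 with 1 replicate left out. CT26 (6 lower) gave 2 with no filter, 2 with median-ratio scaling, 3 with quantile normalisation, 1 with the replicate block, 0 with the shared spread and 1 to 7 with 1 replicate left out. The replicate block called 5 higher in EMT6, 3 higher in RENCA and 1 lower in MBT2 (0 to 1 with 1 replicate left out), where none had been, and the shared spread left 6 of 10 lower in LL2 and 0 of 8 in TC1. Under muDX400, where none had been called, the shared spread called 1 in CM3 and 1 in MBT2, median-ratio scaling 3 in CT26, and leaving out 1 replicate 0 to 9 in CM3 and 0 to 10 in MBT2. The trend of the effect with class gave 0 to 1 with 1 model left out. The block changed no other member count by over 1.5 times, and the cause of these changes was not tested. Small Ciita differences under muDX400 changed sign: with 1 replicate left out MB49 (-0.06) ran from -0.17 to 0.12, RENCA (0.14) from -0.15 to 0.60 and TC1 (0.04) from -0.0346 to 0.11, and quantile normalisation gave 0.0083 in MB49 and -0.000595 in TC1. The single values past 0 were 0.12 and 0.055 in MB49 (isotype 2 or muDX400 4 left out), -0.0794 and -0.15 in RENCA (muDX400 3 or isotype 4) and -0.0076 and -0.0346 in TC1 (muDX400 1 or 2). Scaling moved the median of all genes by over 0.1 in CM3 under muDX400 (by -0.14 to -0.11) and in 5 growth comparisons (0.10 to 0.20). Values near 0 FPKM, as for H2-Oa and H2-Ob in most models, rest on few fragments.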
